A study of Mus musculus with 12 samples.

Results

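The 27 genes described here encode the enzymes that build cholesterol and the proteins that control those enzymes through the SREBP transcription factors. They were chosen by name from the 23282 gene entries of the deposited counts, and all 27 were found and were among the 14163 genes with enough counts to be tested. They comprise 8 enzymes of the mevalonate and isoprenoid steps, 12 enzymes from squalene to cholesterol, 6 SREBP control genes and the sterol carrier gene Stard4. Skin RNA of wild-type male C57BL/6J mice, which were 5 weeks old on arrival, went into 1 library for each animal with QuantSeq, a method in which reads come from the 3′ ends of transcripts. The 5 AD mice received a normal diet, 0.5% DNCB (a hapten that evokes atopic dermatitis-like lesions) 3 times a week for 6 weeks, and distilled water. The 7 HF + AD mice, labelled AD+OB, received the same DNCB and water and a high-fat diet with 60 kcal% fat for 10 weeks, of which 4 preceded the DNCB. Both groups thus carried DNCB lesions, mice without DNCB were not analysed here, and the mice were fasted before tissue was taken. The comparison of HF + AD with AD asks how the diet changed lesional skin, and it holds whole skin, in which fewer cells of a type and less RNA per cell cannot be told apart.

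Cells make cholesterol from acetyl-CoA. The mevalonate steps yield farnesyl diphosphate, which either feeds protein prenylation or is joined into squalene, and squalene is then closed into lanosterol and trimmed to cholesterol. When sterols are low in the endoplasmic reticulum, Scap escorts SREBP to the Golgi, where proteases release its active part, which switches on the genes of the pathway. When sterols are plentiful, Insig proteins hold Scap and SREBP back. In skin, keratinocytes make cholesterol for the lamellar lipids of the permeability barrier, and sebaceous glands make squalene and cholesterol for sebum.

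Of the 27 genes, 5 were lower and 1 was higher in HF + AD than in AD skin (edgeR quasi-likelihood test, Benjamini-Hochberg adjusted p under 0.05 over all genes tested). Those that fell were Fdps, Lss, Cyp51, Sc5d and Insig1, to between 0.53 and 0.73 times the AD level, and Ebp rose 1.84-fold. The 6 genes were 22.2% of the members, against 9.20% of all genes tested. The 5 that fell were 18.5% of the members, against 4.77% of all genes that fell, and the 1 that rose was 3.7%, against 4.43%. The log2 fold change was below 0 in 18 members and above 0 in 9, with a median of −0.22 and a range from −1.01 to 0.89, while the median over all genes tested was 0.023. At an unadjusted p under 0.05, 9 of the 27 members were lower and 1 was higher, against 1808 lower and 1743 higher among all 14163 genes tested. For 2 members, Sc5d and Insig1, every HF + AD mouse lay below every AD mouse. These are 7.41% of the members, and such a separation was seen downwards for 2.56% and upwards for 2.89% of all genes tested.

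**Figure D1:**
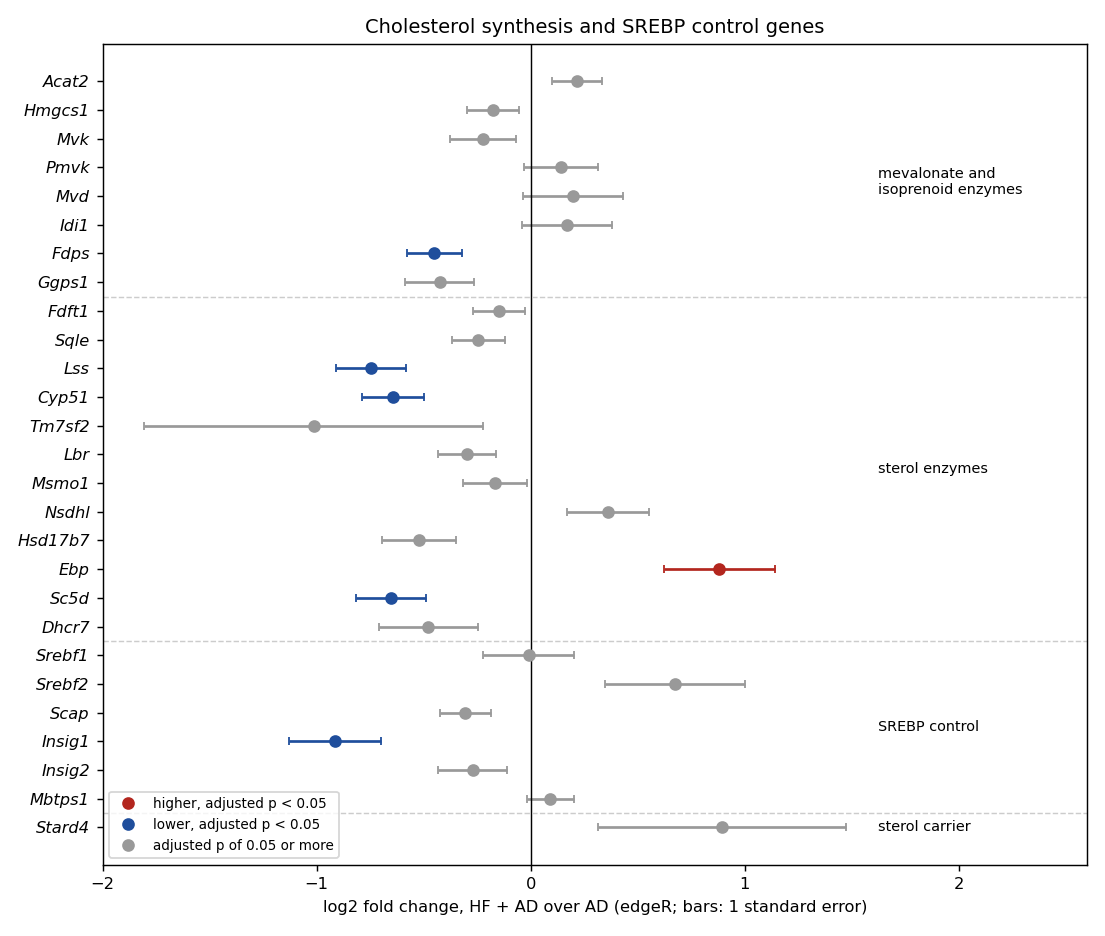
Log2 fold change of HF + AD over AD skin for each of the 27 genes, ordered by role, with bars of 1 standard error. A value below 0 stands for a lower level in HF + AD, and coloured points mark the 6 genes with an adjusted p under 0.05, of which 5 lie below 0 and Ebp lies at 0.88.

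The libraries differed between the groups in ways that touch these values. AD libraries held 9746937 to 11688979 counts and HF + AD libraries 10726845 to 13462434. Reads fell on 13100 to 15063 genes in AD and on 15522 to 16677 in HF + AD libraries. The number of counts made from each sequenced molecule, estimated from the share of zeros among moderately expressed genes, was 12.01 to 32.2 in AD and 3.86 to 7.29 in HF + AD libraries, without overlap. The estimate takes the mean of the other mice of the group as the expected level, so that differences between mice raise it. By it an AD count stood for fewer molecules, and the low members were held by few of them. Per AD library these were an estimated 2.2 to 16.6 molecules for Srebf2, 12.3 to 51.0 for Insig1 and 22.9 to 65.5 for Ebp. When counts were divided by this estimate, the same 6 members had an adjusted p under 0.05 by edgeR, among 11070 genes tested. All genes of a library were divided alike, so that fold changes could hardly move and only the weight of counting error changed. This fit therefore cannot show whether the calls depend on the difference in counts per molecule. When AD mice 1 and 2, with 32.2 and 29.2 counts per molecule, were left out together, Lss and Insig1 were still called and the other 4 were not. Among all genes the SD over mice was larger in AD than in HF + AD for 78.6%, and among the members for 15 of 27 (55.6%). If each count were 1 molecule, a count of 0 would allow up to 3 counts, counting error only. That is up to 0.308 CPM (counts scaled to a common library total, in counts per megaread) in AD and up to 0.280 CPM in HF + AD libraries. With several counts per molecule, as estimated above, the limit is higher, and more so in AD libraries.

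The first steps of the pathway were near the AD level. Acat2, which joins acetyl-CoA units, lay between 186 and 213 CPM in AD and between 210 and 291 CPM in HF + AD skin (log2 fold change 0.22, SE 0.12, adjusted p = 0.265 by edgeR), and 5 of 7 HF + AD mice exceeded every AD mouse. Hmgcs1, the synthase of HMG-CoA, lay between 451 and 580 CPM in AD and between 382 and 542 CPM in HF + AD skin (−0.18, SE 0.12, adjusted p = 0.394). Mvk, the mevalonate kinase, lay between 47.8 and 63.5 CPM and between 32.8 and 55.8 CPM, respectively. In both Hmgcs1 and Mvk, 4 HF + AD mice were below every AD mouse and the other 3 overlapped with AD. The next enzymes, Pmvk (a kinase), Mvd (a decarboxylase) and Idi1 (an isomerase), had log2 fold changes of 0.14, 0.20 and 0.17, with adjusted p values of 0.666, 0.659 and 0.673. Their levels were all between 23.9 and 72.9 CPM and overlapped broadly.

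Fdps, which makes farnesyl diphosphate at the branch between prenylation and sterols, was the member of this stretch that fell. The gene spans chr3:89093588-89101959 on the minus strand (GRCm38). It was at 218, 156, 201, 165 and 186 CPM in AD mice 1 to 5 and at 121 to 173 CPM in HF + AD mice (median 131 CPM). HF + AD mouse 5 held the highest of these values and overlapped with AD, and the other 6 were below every AD mouse. This gave a log2 fold change of −0.45 (SE 0.13, adjusted p = 0.0368), with means of 7.53 ± 0.20 (SD, n = 5) and 7.08 ± 0.17 (SD, n = 7) log2(CPM + 1). The call depended on single mice: with each mouse left out in turn, the adjusted p lay between 0.0153 and 0.0750 and passed the threshold in 3 of 12 fits, in which number 2 or 4 of AD or number 5 of HF + AD was omitted. The last 300 bases of the Fdps transcript match 6 processed pseudogenes over 123 to 247 bases, with at least 91.4% identity, and share 199 bases with the gene model Gm43738, so that reads may have been split between them. Ggps1, which lengthens farnesyl to geranylgeranyl diphosphate for prenylation, lay between 47.4 and 63.6 CPM in AD and between 29.5 and 49.0 CPM in HF + AD skin (−0.43, SE 0.16, adjusted p = 0.108), with 6 of 7 HF + AD mice below all AD mice. Over the 8 genes the median log2 fold change was −0.018. Their summed level was 1063 to 1232 CPM in AD and 965 to 1229 CPM in HF + AD mice.

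The 12 enzymes from squalene to cholesterol held 3 of the genes that fell and the 1 that rose (33.3% called, against 9.20% of all genes tested). Their log2 fold changes were below 0 for 10, with a median of −0.39. The summed level was 2397 to 2723 CPM in AD mice (2587 ± 166, SD, n = 5) and 1782 to 2623 CPM in HF + AD mice (2065 ± 289, SD, n = 7). The groups overlapped through HF + AD mouse 4, which had the highest sum over all 20 enzymes (3852 CPM) of its group, the other 6 being at most 3405 CPM. Fdft1, the squalene synthase, lay between 116 and 159 CPM in AD and between 108 and 140 CPM in HF + AD skin (adjusted p = 0.495). Its last 500 bases are overlapped by Ctsb on the opposite strand, and whether the counting used strand is not given in the sources used here, so that reads of the pair cannot be told apart. Sqle, the squalene epoxidase, lay between 116 and 158 CPM and between 104 and 138 CPM, respectively (−0.24, SE 0.12, adjusted p = 0.225).

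Lss, which closes squalene epoxide into lanosterol, fell. The gene lies at chr10:76531588-76557138 on the plus strand. It was at 171, 159, 196, 139 and 120 CPM in AD mice 1 to 5, and at 73.4 to 134 CPM in HF + AD mice (median 93.4 CPM). Mouse 5 of the HF + AD group overlapped with AD, and the other 6 were below all AD mice. Its log2 fold change was −0.75 (SE 0.16, adjusted p = 0.0126). The call held with each mouse left out in turn. Within the last 300 bases of the Lss transcript, 109 match 4930483K19Rik, a transcript of the annotated type antisense, with 99.1% identity. This is a match of sequence, and no exon of another gene overlaps the last 500 bases of the Lss gene.

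Cyp51, the cytochrome P450 that removes a methyl group from lanosterol, was among the most abundant members and fell as well (chr5:4081145-4104746, minus strand). It was at 673, 677, 737, 605 and 567 CPM in AD mice 1 to 5, and at 330 to 594 CPM in HF + AD mice (median 382 CPM). HF + AD mouse 4 held the highest value and lay within the AD range, whereas the other 6 did not. Cyp51 thus had a log2 fold change of −0.64 (SE 0.15, adjusted p = 0.0145), and the call held with each mouse left out. The end of Cyp51 overlaps that of Akap9 on the opposite strand by 166 bases. As with Fdft1, the use of strand is not given, so that reads in these bases cannot be assigned to 1 gene of the pair. Akap9, which is not a member, rose in the same mice (log2 fold change 0.96, SE 0.24, adjusted p = 0.0203), from 64.5 to 139 CPM in AD to 103 to 259 CPM in HF + AD skin.

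Lbr, Tm7sf2, Msmo1, Nsdhl and Hsd17b7, which act between Cyp51 and Ebp, were not called. Lbr, a sterol reductase that also anchors chromatin at the nuclear envelope, lay between 316 and 501 CPM in AD and between 278 and 416 CPM in HF + AD skin (−0.30, SE 0.13, adjusted p = 0.172). The end of Lbr also overlaps a transcript of Dnah14 on the opposite strand, with the same limit on telling reads apart. Tm7sf2, which catalyses the same reduction, had 3 to 61 counts in AD and 2 to 30 counts in HF + AD libraries, near the limit of detection, and its log2 fold change of −1.01 had an SE of 0.79. Msmo1, the methylsterol monooxygenase, lay between 469 and 641 CPM in AD and between 389 and 683 CPM in HF + AD skin. Nsdhl, a sterol dehydrogenase on the X chromosome, lay between 26.6 and 58.0 CPM and between 47.5 and 74.3 CPM (0.36, SE 0.19, adjusted p = 0.260). Hsd17b7, the ketosterol reductase, lay between 186 and 303 CPM and between 129 and 228 CPM, and 5 of 7 HF + AD mice were below every AD mouse (−0.52, SE 0.17, adjusted p = 0.0658). Hsd17b7 passed the threshold in 3 of 12 fits with a mouse left out, when the animal omitted was number 5 of AD or number 4 or 5 of HF + AD (lowest adjusted p = 0.0428).

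Ebp, the sterol isomerase of the late pathway, moved in the opposite direction to the members that fell (chrX:8185329-8193512, minus strand). It was at 112, 69.2, 92.1, 70.6 and 59.9 CPM in AD mice 1 to 5, and at 90.9 to 274 CPM in HF + AD mice (median 113 CPM). The rise was carried by HF + AD mice 1, 2 and 4, at 274, 188 and 167 CPM, whereas the other 4 were between 90.9 and 113 CPM and near the upper AD values. The log2 fold change was 0.88 (SE 0.26, adjusted p = 0.0423). With each mouse left out in turn, the adjusted p lay between 0.0251 and 0.0901 and the call held in 5 of 12 fits, in which number 1 of AD or number 3, 5, 6 or 7 of HF + AD was omitted. Without HF + AD mouse 1 the log2 fold change was 0.66. The call was also lost after correction for GC content (adjusted p = 0.0694).

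Sc5d, the desaturase that acts next, separated the groups completely (chr9:42251595-42264256, minus strand). It was at 152, 91.1, 85.7, 81.4 and 96.1 CPM in AD mice 1 to 5, and at 53.0 to 78.9 CPM in HF + AD mice (median 64.4 CPM). AD mouse 1 stood well above the rest of its group. The log2 fold change was −0.65 (SE 0.16, adjusted p = 0.0227). The exact two-sided permutation test gave an unadjusted p = 0.00126, the smallest that 5 against 7 mice allow, which any complete separation gives. Without HF + AD mouse 2 the adjusted p was 0.0519, and in the other 11 such fits the call held. Dhcr7, the reductase of a final step, lay between 41.5 and 110 CPM in AD and between 32.0 and 79.3 CPM in HF + AD skin (−0.48, SE 0.23, adjusted p = 0.207).

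**Figure D2:**
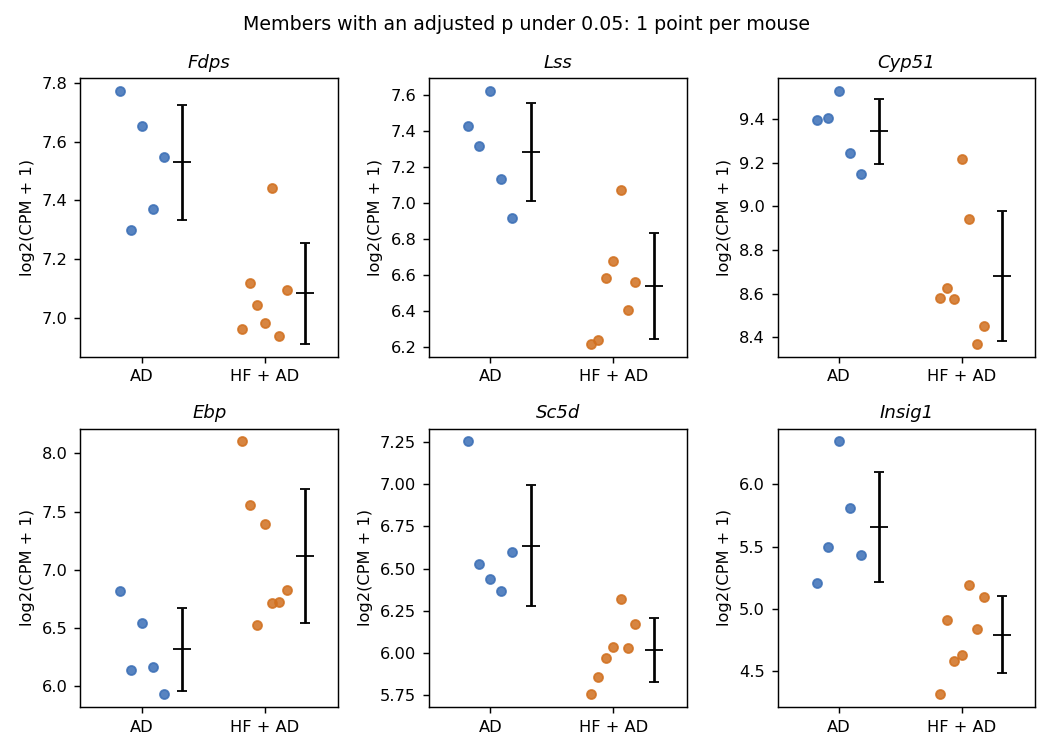
Level of each of the 6 called members as log2(CPM + 1), with 1 point per mouse for 5 AD and 7 HF + AD mice, and the group mean with its SD as a bar beside the points. The vertical axes do not start at 0. Sc5d and Insig1 show no overlap between groups, Fdps, Lss and Cyp51 overlap through 1 HF + AD mouse each, and Ebp is carried by 3 HF + AD mice.

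In the SREBP control genes, the fall of Insig1 stood beside levels of the transcription factor genes that were not called. Insig1 (chr5:28071363-28078662, plus strand), which holds the SREBP and Scap complex in the endoplasmic reticulum and is itself a known SREBP target, was at 36.0, 44.1, 80.2, 55.0 and 42.1 CPM in AD mice 1 to 5. It was at 18.9 to 35.7 CPM in HF + AD mice (median 27.7 CPM), and the highest of these lay just under the lowest AD mouse. On the log2 scale the fold change was −0.91 (SE 0.22, adjusted p = 0.0170), with means of 5.66 ± 0.44 (SD, n = 5) and 4.80 ± 0.31 (SD, n = 7) log2(CPM + 1), and the call held with each mouse left out. The exact permutation p was 0.00126, which again follows from the complete separation. Insig2, the related retention gene, lay between 129 and 221 CPM in AD and between 101 and 169 CPM in HF + AD skin (−0.27, SE 0.16, adjusted p = 0.314).

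Srebf1, which encodes the SREBP forms best known for fatty acid genes, was at 23.0, 62.7, 40.1, 44.6 and 43.2 CPM in AD mice 1 to 5 and at 35.0 to 55.9 CPM in HF + AD mice (median 40.4 CPM). The groups overlapped fully. Its fitted log2 fold change was −0.010 (SE 0.21, adjusted p = 0.985), whereas its mean log2(CPM + 1) was 5.38 ± 0.51 (SD, n = 5) in AD and 5.42 ± 0.24 (SD, n = 7) in HF + AD, so that the direction was not settled. Its end overlaps Rai1 on the opposite strand by 109 bases, and reads there cannot be assigned to 1 gene of the pair. Srebf2, which encodes the form best known for cholesterol genes, was at 17.5, 6.62, 27.7, 10.9 and 10.1 CPM in AD and at 12.4 to 31.5 CPM in HF + AD mice (median 24.4 CPM). Its log2 fold change was 0.67 (SE 0.33, adjusted p = 0.213), and 2 HF + AD mice exceeded every AD mouse. With each mouse left out in turn it lay between 0.49 and 1.04, the highest without AD mouse 3 (adjusted p = 0.0533). Scap, the escort, was at 430, 443, 435, 388 and 364 CPM in AD and at 284 to 389 CPM in HF + AD mice (median 344 CPM), with 5 of 7 below every AD mouse (−0.30, SE 0.12, adjusted p = 0.111). After correction for GC content Scap passed the threshold (adjusted p = 0.0184). Mbtps1, the protease that makes the first cut in SREBP, lay between 154 and 173 CPM in AD and between 154 and 194 CPM in HF + AD skin (0.091, SE 0.11, adjusted p = 0.665).

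**Figure D3:**
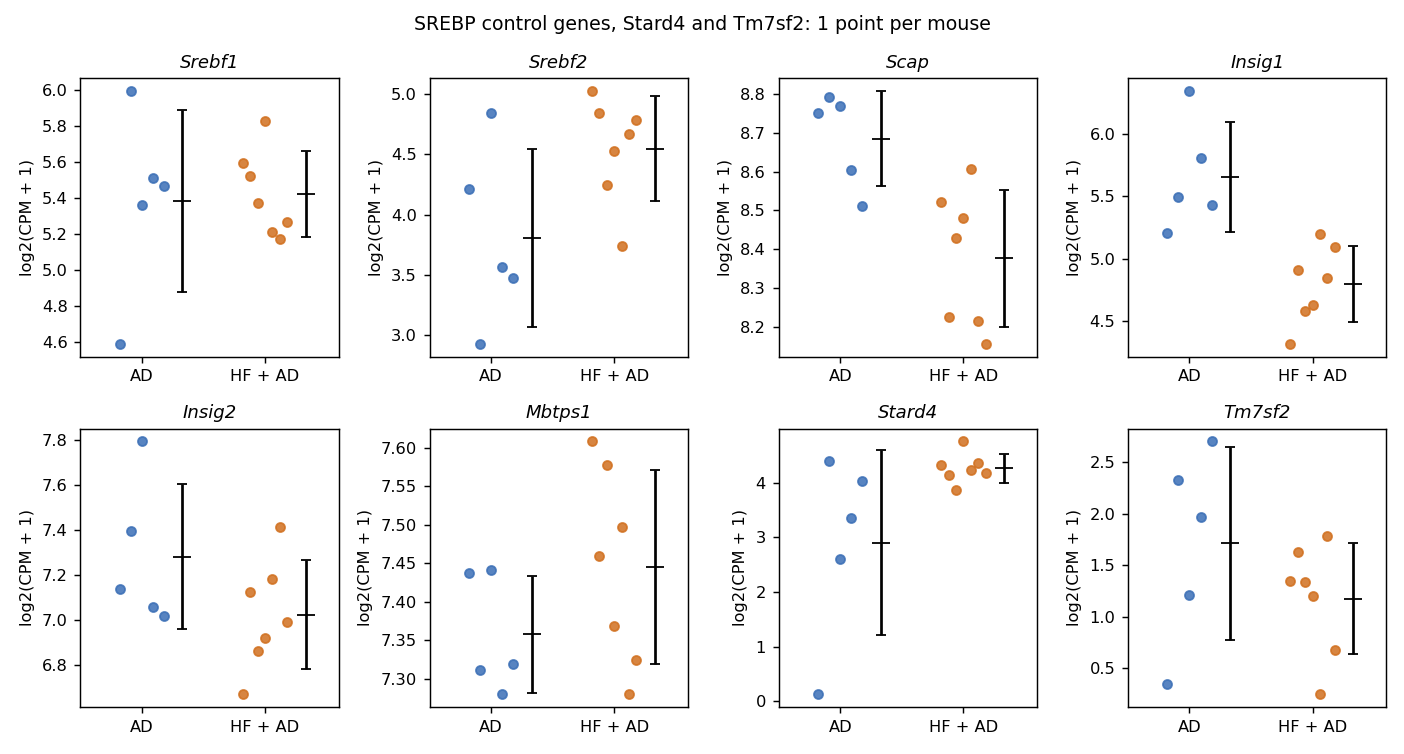
Level of the 6 SREBP control genes, and of Stard4 and Tm7sf2, as log2(CPM + 1). Each panel has 1 point per mouse for 5 AD and 7 HF + AD mice and the group mean with its SD as a bar. The vertical axes do not start at 0. For Insig1 all HF + AD mice lie below all AD mice, while Srebf1 overlaps fully.

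Stard4, which carries cholesterol through the cytosol, was at 0.0907, 20.2, 5.05, 9.19 and 15.5 CPM in AD mice 1 to 5 and at 13.6 to 26.1 CPM in HF + AD mice (median 17.8 CPM). The value of AD mouse 1 rested on 1 count, and the AD libraries held an estimated 0.0 to 14.2 molecules of it. The log2 fold change was 0.89 (SE 0.58, adjusted p = 0.366).

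Across mice, the members did not move as 1 block. AD mice held the highest level of all 12 mice for 17 members and HF + AD mice for 10, and the lowest level was in an AD mouse for 9 and in an HF + AD mouse for 18. These counts were not made for all genes tested, so that no share stands beside them. The groups also differ in size, and the SD was larger in AD for 78.6% of all genes tested. HF + AD mouse 1 was lowest of all for 7 members and mouse 6 for 5. Among the 5 genes that fell, HF + AD mouse 5 had the highest level of its group in 4 and mouse 4 in the remaining one, Cyp51. HF + AD mouse 1 was the lowest of its group in 3 of those 5 and was the highest for Ebp.

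**Figure D4:**
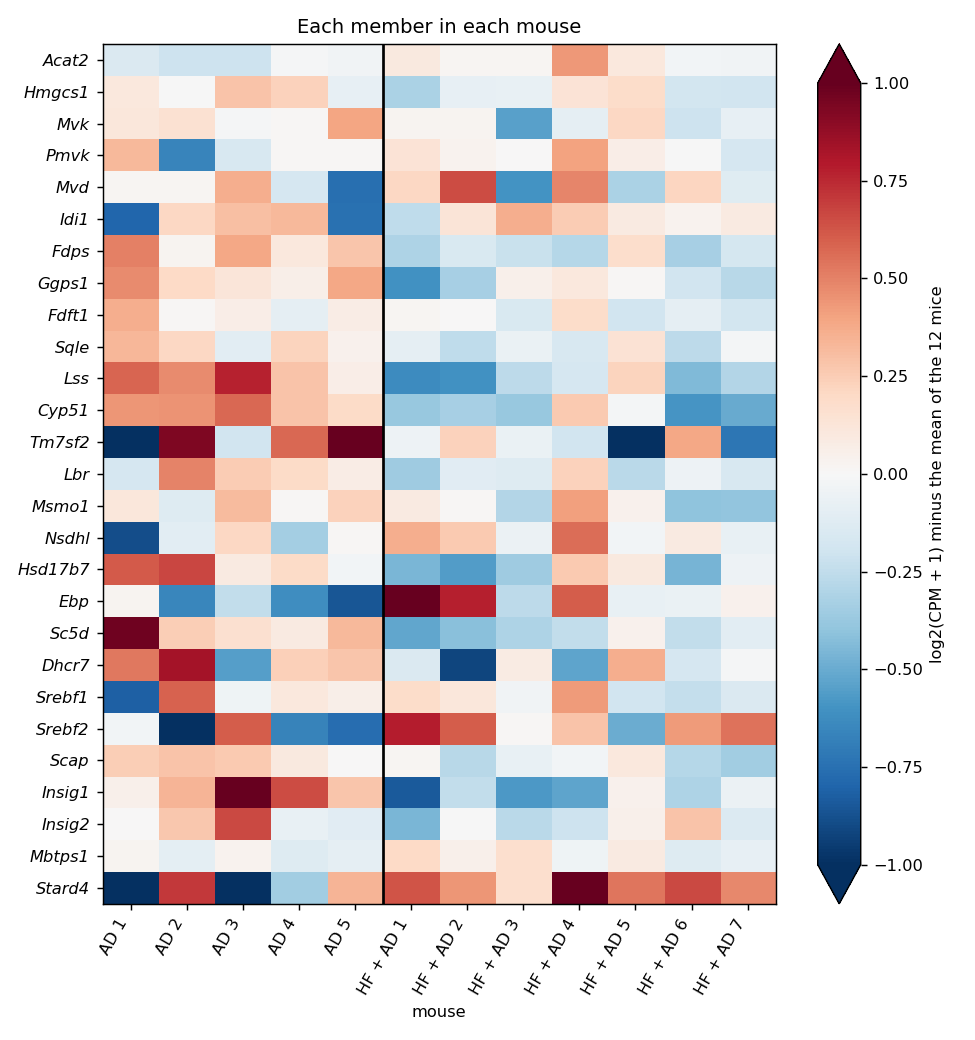
Level of each of the 27 genes (rows, ordered by role) in each of the 12 mice (columns), as log2(CPM + 1) minus the gene's mean over all mice, on a colour scale that ends at −1 and 1. Lss, Cyp51, Sc5d and Insig1 are above their mean in AD and mostly below it in HF + AD mice. Ebp is furthest above its mean in HF + AD mice 1, 2 and 4, and only just above it in HF + AD mouse 7 and AD mouse 1.

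The 250 bases before the transcription start are given for the called members with a sequence at hand, Lss, Cyp51, Ebp, Sc5d and Insig1, and for Hmgcs1, since SREBP acts on such regions together with NF-Y. They are from RefSeq on GRCm38.p6 and are written 5′ to 3′ in the direction of the gene. Capitals mark the NF-Y box (CCAAT, or ATTGG where it lies on the other strand) and, in Hmgcs1, the sterol regulatory element (SRE).
Lss (chr10:76531355-76531604, plus strand): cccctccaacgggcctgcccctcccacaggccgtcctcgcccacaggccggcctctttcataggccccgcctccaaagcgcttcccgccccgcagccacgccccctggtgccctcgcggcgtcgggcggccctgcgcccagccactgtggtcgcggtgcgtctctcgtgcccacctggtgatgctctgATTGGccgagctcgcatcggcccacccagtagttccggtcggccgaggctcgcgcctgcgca
Cyp51 (chr5:4104698-4104947, minus strand): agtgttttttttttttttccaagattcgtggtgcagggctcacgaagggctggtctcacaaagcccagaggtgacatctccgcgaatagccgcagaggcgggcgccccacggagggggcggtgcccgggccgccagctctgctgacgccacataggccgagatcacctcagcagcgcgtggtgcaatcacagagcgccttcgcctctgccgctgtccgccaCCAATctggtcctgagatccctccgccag
Ebp (chrX:8193513-8193762, minus strand): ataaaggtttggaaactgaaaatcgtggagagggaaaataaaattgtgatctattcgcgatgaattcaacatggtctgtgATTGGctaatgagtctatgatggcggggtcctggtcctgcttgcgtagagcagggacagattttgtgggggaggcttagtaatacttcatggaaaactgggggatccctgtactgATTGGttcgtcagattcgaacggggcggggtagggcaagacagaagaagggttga
Sc5d (chr9:42264301-42264550, minus strand): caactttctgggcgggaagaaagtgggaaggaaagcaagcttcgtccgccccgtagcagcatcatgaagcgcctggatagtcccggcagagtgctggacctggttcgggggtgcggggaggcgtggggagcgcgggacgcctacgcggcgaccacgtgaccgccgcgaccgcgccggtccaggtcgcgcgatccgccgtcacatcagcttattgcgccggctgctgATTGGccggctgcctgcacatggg
Insig1 (chr5:28071162-28071411, plus strand): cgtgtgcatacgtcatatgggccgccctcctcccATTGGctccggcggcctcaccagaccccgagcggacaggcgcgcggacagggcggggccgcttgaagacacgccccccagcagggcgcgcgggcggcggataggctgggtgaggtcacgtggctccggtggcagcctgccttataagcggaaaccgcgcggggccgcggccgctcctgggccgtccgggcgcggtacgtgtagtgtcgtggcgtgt
Hmgcs1 (chr13:119690101-119690350, plus strand): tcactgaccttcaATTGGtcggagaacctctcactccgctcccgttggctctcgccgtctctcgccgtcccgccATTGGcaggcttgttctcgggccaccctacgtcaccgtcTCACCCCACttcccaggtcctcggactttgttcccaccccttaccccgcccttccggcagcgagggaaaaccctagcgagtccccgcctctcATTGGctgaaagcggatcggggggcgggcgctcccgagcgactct

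Of the 27 members, 23 had a promoter sequence in the table used. The letters CCAAT stood on either strand in 20 of these (87.0%), counting every listed start of a gene, against 39.9% of the 10653 tested genes with a sequence. They stood 62 bases before the start in Lss, 29 in Cyp51, 24 in Sc5d, 216 in Insig1, and 170 and 55 in Ebp. The GC box GGGCGG stood in 21 members (91.3%) against 61.6% of tested genes, and the E-box CACGTG in 5 (21.7%; Dhcr7, Hsd17b7, Insig1, Sc5d and Scap) against 9.57%. The SRE letters TCACNCCAC stood in 1 member, Hmgcs1 (4.3%), 137 bases before its start, against 1.26%. Each motif was searched on both strands and counted whether or not it overlapped another, and the genes with the box included both Ebp, which rose, and 4 of the genes that fell, Fdps having no sequence in the table. These are matches of letters in a window and not measured binding sites.

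Other genes of the pathway, in 5 lists that hold no member, moved in both directions. Of their 58 genes tested, 4 were higher and 5 were lower (15.5%, against 9.20% of all genes tested). The median log2 fold change was 0.13, against 0.023 over all genes. The share called was 14.3% for SREBP-linked fatty acid genes and 9.09% for users of mevalonate products outside sterols. It was 30.0% for SREBP retention, turnover and nuclear partners, 28.6% for redox partners and binding proteins, and 6.25% for storage, transport and oxysterols. Of the SREBP-linked fatty acid genes, 2 of 14 fell and none rose: Scd1, the desaturase that makes oleate, from 1411 to 2270 CPM in AD to 918 to 1577 CPM in HF + AD (−0.74, SE 0.16, adjusted p = 0.0126), and Me1, a source of NADPH, from 188 to 308 CPM to 94.8 to 184 CPM (−0.88, SE 0.18, adjusted p = 0.0101). Fasn, the fatty acid synthase, had a log2 fold change of 0.52 with an adjusted p of 0.0900. Of 11 tested genes that use mevalonate products outside sterols, Pggt1b, a subunit of the geranylgeranyl transferase, fell (−1.13, adjusted p = 0.0379).

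Of the 10 genes of SREBP retention, turnover and nuclear partners, 2 rose and 1 fell. The ubiquitin ligase genes Rnf145 (0.69, adjusted p = 0.0331) and Fbxw7 (0.50, adjusted p = 0.0485) were higher, and Erlin1, which binds the SREBP and Scap complex, was lower (−0.73, adjusted p = 0.0423). Among 7 redox partners and binding proteins of the sterol enzymes, Cyb5a, the cytochrome b5 that donates electrons to the desaturases, rose (0.87, adjusted p = 0.0270) and Pgrmc1 fell (−0.60, adjusted p = 0.0197). Of 16 genes for storage, transport and oxysterols, Apoe alone was called. It rose from 1628 to 3621 CPM in AD to 4239 to 6785 CPM in HF + AD mice without overlap (1.16, SE 0.19, adjusted p = 0.00459).

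Marker genes of the cells that skin can hold gave the following levels beside these results. Each count of markers that rose or fell is to be read against the 9.20% of all genes tested that were called. The summed level of 6 basal keratinocyte markers was 3527 to 5281 CPM in AD and 6161 to 10850 CPM in HF + AD mice, without overlap. Krt5, Krt14 and Krt15 rose, and Krt5 alone held 2232 to 3807 CPM in AD and 4043 to 6641 CPM in HF + AD mice. Col17a1 (log2 fold change 0.0010, adjusted p = 0.998), Itgb4 (0.39, adjusted p = 0.236) and Itga6 (0.14, adjusted p = 0.564) were not called. Of 8 hair shaft markers 3 rose (2256 to 4472 CPM against 3443 to 5845 CPM), of 7 inner root sheath markers 2 rose (6745 to 11230 CPM against 8233 to 11710 CPM), and of 8 skeletal muscle markers 2 fell (1096 to 2685 CPM against 719 to 1742 CPM). Of 9 tested sebocyte markers, Awat1, which makes wax esters in sebum, rose and none fell (11.1% called). The log2 fold change was nevertheless below 0 in 6 of the 9, with a median of −0.19. The sum of all 10 listed sebocyte markers was 1535 to 3262 CPM in AD and 1265 to 2591 CPM in HF + AD mice. No marker of adipocytes, suprabasal keratinocytes, hyperproliferative epidermis, dermal fibroblasts, or macrophages and dendritic cells was called. Summed levels of these 5 lists overlapped between groups, at 154 to 797 against 145 to 634 CPM, 543 to 2611 against 532 to 1697 CPM, 7185 to 26930 against 6352 to 17080 CPM, 3283 to 9883 against 3292 to 10270 CPM, and 67.3 to 279 against 98.9 to 300 CPM, respectively. No marker was at 0 in every library, while Mc5r, Plin1, Lep, Krt83, Krt72, Cd68, Lyz2 and Itgax were at 0 in some. The part of cell composition in the changes of the members was not tested.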

How the data were processed

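Skin RNA of 12 mice was measured by sequencing of mRNA 3′ ends, and each mouse was assigned to AD or HF + AD by its label. Per gene symbol and mouse, the authors deposited counts of reads without normalization. The submitters' processing notes name Bowtie2, bedtools and mm10. Their versions, the annotation, the use of strand and the handling of duplicate reads are not given in the sources used here, and no molecular identifiers are described. The 23282 entries include 35 symbols listed more than once, which were kept apart, and 4677 entries without a read.

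HF + AD was compared with AD in edgeR 4.0.16 (R 4.3.3) on the counts, with TMM factors of 0.944 to 1.04, filterByExpr, a quasi-likelihood F test and Benjamini-Hochberg adjustment over 14163 genes at 0.05. No member was lost to the filter. The standard error is the size of the log2 fold change divided by the square root of F. CPM values use TMM-scaled totals, and single genes were also compared as log2(CPM + 1) by exact two-sided permutation. The labels do not say whether mice shared cages or days. Counts per molecule were estimated from genes with 10 to 200 expected counts, and the GC correction used 20 bins.

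Positions come from GENCODE M21 and promoters from RefSeq (GRCm38.p6). limma 3.58.1, DESeq2 1.42.0, BLAST 2.17.0, Python 3.11.15, NumPy 2.4.6, SciPy 1.17.1, pandas 2.3.3 and matplotlib 3.10.9 were also used, and the steps were tested on simulated data. The 27 members are named by rule, all of them, and from the other lists the genes past the threshold. Fasn, Gpam, Akap9 and the overlap partners, the basal keratinocyte markers that were not called, and the markers at 0, were named after their values were seen. The members, lists and tests were chosen with earlier results of these data known. Alternatives were DESeq2 size factors, library totals, no filter, 10 counts in every library, DESeq2's Wald test, limma-trend, the replicate number as a block, counts per molecule, the GC correction, a pseudocount of 0.1 and each mouse left out. A suprabasal keratinocyte marker was not analysed here.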

Additional observations from a re-analysis of the deposited data

Results flagged for a closer look

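In 3 of 54 groups of values (27 members in AD and in HF + AD) 1 mouse stood apart from the rest of its group by Dixon's ratio of gap to range, and chance gives about 1 in 20. For Acat2, HF + AD mouse 4 was at 8.19 log2(CPM + 1) and the next mouse at 7.86 (ratio 0.697). For Fdps, HF + AD mouse 5 was at 7.44 and the next at 7.12 (ratio 0.641). For Sc5d, AD mouse 1 was at 7.25 and the next at 6.60 (ratio 0.735). Without that mouse the call of Sc5d held, while leaving out HF + AD mouse 5 kept the call of Fdps.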

How the results depend on the processing

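The replicate numbers did not pair the mice: the deviations of same-numbered mice correlated at 0.067, −0.029, −0.11, 0.072 and 0.039, and 1 of 5 numbers correlated best with its own. With the number as a replicate block, 192 genes, 0 members higher, 0 members lower and 1 gene of the other pathway lists were called, against 1303, 1, 5 and 9. With each mouse left out in turn, 639 to 1461 genes were called, with 0 to 1 members higher, 3 to 6 lower and 4 to 9 genes of the other lists. The lowest counts of all genes were without HF + AD mouse 2 (639), HF + AD mouse 1 (686), HF + AD mouse 4 (794) and AD mouse 2 (803). After the GC correction 0 members were higher and 6 were lower. Without AD mice 1 and 2, an alternative chosen after seeing the data, 0 members were higher and 2 lower, with 5 genes of the other lists. Of all called genes, 48.1% were higher in the main fit, 59.1% with library totals and 32.7% with the GC correction, which moved the median of all genes to −0.058. With limma-trend that median was 0.15.

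Lss was called in 21 of 22 alternatives, Insig1 in 21, Cyp51 in 20, Sc5d in 19, Ebp in 12 and Fdps in 9. By exact permutation, without adjustment, some members that were not called had p under 0.05. These were Ggps1 (0.00884), Scap (0.0126), Acat2 (0.0177), Stard4 (0.0202), Hsd17b7 (0.0240), Sqle (0.0303) and Lbr (0.0417). No share over all genes stands beside them. Log2 fold changes that turned were Pmvk (−0.11), Mvd (−0.057) and Mbtps1 (−0.013) with the GC correction, and Srebf1 with library totals (0.028), limma-trend (0.0414) and the block (0.12). With a mouse left out, Srebf1 lay between −0.16 and 0.17, and its difference in mean log2(CPM + 1) between −0.16 and 0.19. The causes were not tested. The AD libraries held an estimated 0.1 to 5.1 molecules of Tm7sf2, 0.0 to 14.2 of Stard4 and 2.2 to 16.6 of Srebf2. What this meant for their fold changes was not tested.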
